A study of Homo sapiens with 2 samples.

Results

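The genes of cholesterol and fatty acid synthesis were compared between control cells and FZR1 ko cells under cisplatin. They are 31 genes that code for the enzymes of the mevalonate and sterol steps, the SREBP regulators, and the enzymes of fatty acid synthesis and desaturation. Each was found in the deposited table by its Entrez gene ID, and all 31 of the 23033 genes with a value were found. Membership follows the pathway role of a gene and no measured value enters it, but the list was drawn up with earlier results of these data known. Total RNA was sequenced from control cells (genotype WT) and FZR1 ko cells. The label of both is T-47D, which is a line of luminal breast cancer, and both were given 2 µg/ml cisplatin. FZR1 is an activator of the anaphase-promoting complex, a ubiquitin ligase. The knockout line was made with CRISPR/Cas9 and grown from a single cell, so it stands for 1 clone. Each condition had 1 library, so no difference has a replicate check and no test was made. Cells without cisplatin were not analysed here.

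Cholesterol is made from acetyl-CoA through mevalonate, farnesyl pyrophosphate, squalene and lanosterol. Fatty acids are made from the same acetyl-CoA by carboxylation, chain extension and desaturation. The SREBP transcription factors switch on genes of both routes. They are held in the endoplasmic reticulum with SCAP by the INSIG proteins while sterols are plentiful, and they are cut and released to the nucleus when sterols fall. Both routes supply membrane lipid to growing cells, and breast cancer cells often express fatty acid synthase strongly.

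SREBPs bind sterol regulatory elements in promoters, usually with NF-Y at CCAAT boxes and Sp1 at GC boxes nearby. The RefSeq promoter windows of GRCh38.p14, from 250 bases before to 50 bases after a start site, were searched on both strands for TCACNCCAC (a sterol regulatory element core), CCAAT and GGGCGG. Windows were matched for 27 of the 31 genes, and ACAT2, FDFT1, SQLE and FASN had none. The sterol element core was found in 1 of the 27, SREBF2, against 1.39% of all 27305 genes with a window. CCAAT was found in 20 of the 27 (74.1%), against 39.7% of all genes with a window and 43.5% of the 9537 protein-coding genes that were also expressed here. GGGCGG was found in 26 of the 27 (96.3%), against 48.3% and 77.7%. A match is a description of the letters, and a gene with several windows has more chances of a match. An exact search misses elements with other letters and those outside the window, so a gene without a match may still hold one. GGGCGG copies can overlap each other, as they do in ACACA.

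Below are stretches before the start site for the genes that were at least 2-fold higher in FZR1 ko and for the 3 genes with the lowest ratios. They are shown so that the promoter letters of genes that went in opposite directions can be read side by side. Each is the 120 bases, free of exons of protein-coding genes, that hold the most matches in the first window of the gene. Capitals mark the 3 motifs on either strand. ACACA has 3 windows and SC5D has 2, and both have CCAAT matches outside the stretches shown.
SREBF2, chr22:41832972-41833091, plus strand: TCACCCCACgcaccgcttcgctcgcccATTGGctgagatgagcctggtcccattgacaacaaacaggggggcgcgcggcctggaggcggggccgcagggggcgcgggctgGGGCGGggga
MVK, chr12:109573607-109573726, plus strand: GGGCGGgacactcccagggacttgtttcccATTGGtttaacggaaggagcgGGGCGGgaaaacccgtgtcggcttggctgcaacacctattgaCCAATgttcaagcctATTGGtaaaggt
ELOVL6, chr4:110198654-110198773, minus strand: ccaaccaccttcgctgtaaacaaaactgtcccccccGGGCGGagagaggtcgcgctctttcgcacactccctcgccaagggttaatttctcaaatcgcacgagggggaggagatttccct
ACACA, chr17:37406950-37407069, minus strand: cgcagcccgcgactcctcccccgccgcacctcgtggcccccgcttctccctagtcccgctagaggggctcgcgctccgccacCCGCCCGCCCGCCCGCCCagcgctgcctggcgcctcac
MSMO1, chr4:165327530-165327649, plus strand: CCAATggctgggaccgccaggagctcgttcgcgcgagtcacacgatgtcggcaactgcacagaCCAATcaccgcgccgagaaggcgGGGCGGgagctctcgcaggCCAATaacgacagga
STARD4, chr5:111512591-111512710, minus strand: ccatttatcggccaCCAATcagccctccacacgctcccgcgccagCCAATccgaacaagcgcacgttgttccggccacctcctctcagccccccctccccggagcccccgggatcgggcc
SC5D, chr11:121292561-121292680, plus strand: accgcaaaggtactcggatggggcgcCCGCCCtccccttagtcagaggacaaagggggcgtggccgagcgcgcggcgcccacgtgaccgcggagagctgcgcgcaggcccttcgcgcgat
In SREBF2 the sterol element core lay at -133 to -125 from the start site and was followed by an inverted CCAAT box at -106 to -102 and a GC box at -23 to -18. MVK and MSMO1 went in opposite directions, and both hold several CCAAT boxes and GC boxes. STARD4, which had a lower value in FZR1 ko, holds 2 CCAAT boxes in the stretch shown, and ELOVL6, which was past 2-fold, holds none in its window.

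Levels are given as FPKM, the fragments scaled by the authors to transcript length and to the mapped fragments of the library. The number of reads is not kept in FPKM, and the depth behind a value is unknown. A difference is the log2 ratio of FPKM + 1 between FZR1 ko and control, and it was computed for the 13554 genes that reached 1 FPKM in either library. This scale understates the difference of low genes. All 31 genes passed this filter. The median log2 ratio of all 13554 genes was -0.0048. FZR1 itself had 12.3 FPKM in control against 10.1 FPKM in FZR1 ko. Small edits by Cas9 need not remove a transcript, so this level does not check the labels. Of 9 luminal breast markers, 5 were below 1 FPKM in both libraries, among them ESR1, PGR, GATA3 and CDH1, which goes against the label T-47D. The summed level of these 9 markers was 1392 FPKM in control against 1756 FPKM in FZR1 ko, most of it from KRT8 and KRT18. Of 7 mesenchymal and basal markers, KRT5, KRT14 and TP63 were below 1 FPKM in both libraries, and the sum of the list, 327 and 321 FPKM, was mostly VIM. EPCAM, from 3.90 to 11.5 FPKM, and CDH2, from 2.97 to 15.3 FPKM, were more than 2-fold higher in FZR1 ko, and the part of such differences between the cultures in the values below was not tested.

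Genes of lipid synthesis were mostly higher in FZR1 ko. Of the 31 genes, 25 (80.6%) had the higher value in FZR1 ko and 6 had the higher value in control, while 49.6% of all genes kept were higher and 50.3% lower in FZR1 ko. The median log2 ratio of the 31 genes was 0.49, with a range from -0.81 for SC5D to 1.52 for ACACA. At least 1.5-fold higher were 12 of the 31 (38.7%), against 18.0% of all genes kept, and 1 gene, SC5D, was at least 1.5-fold lower, against 17.6%. At least 2-fold higher were 4 of the 31 (12.9%), ACACA, MVK, ELOVL6 and SREBF2, against 6.78% of all genes kept. None was at least 2-fold lower, against 6.72%. Among the 6411 protein-coding genes with a mean of at least 10 FPKM, a comparison added after the values were seen, 47.3% were higher in FZR1 ko, 12.8% at least 1.5-fold and 3.65% at least 2-fold, and 52.7% were lower, 16.8% at least 1.5-fold and 5.52% at least 2-fold. Of the 31 genes, 27 reach that mean, and ACACA, ELOVL6, AACS and SC5D do not. Of these 27, 22 were higher in FZR1 ko, 9 at least 1.5-fold and 2 (7.41%), MVK and SREBF2, at least 2-fold, and none was at least 1.5-fold lower. With a pseudocount of 5 FPKM none of the 31 genes was past 2-fold, and their median was 0.43. In bulk RNA, a different share of cells with high levels and a different level in every cell cannot be told apart.

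**Figure D1:**
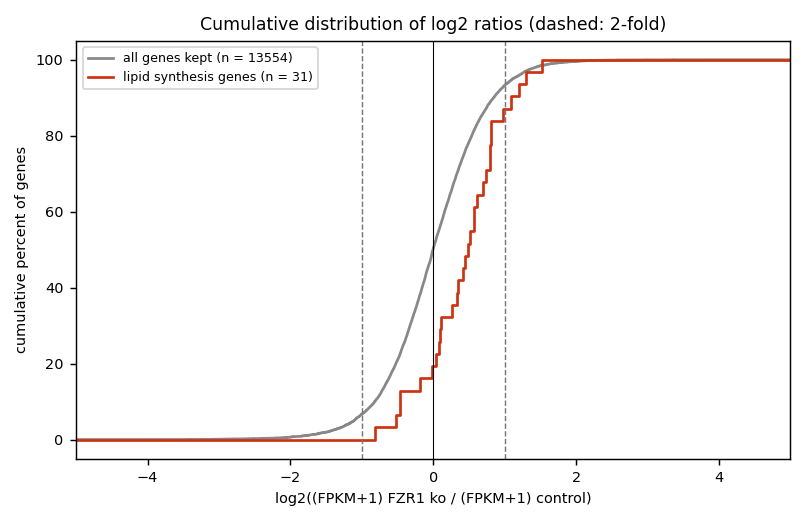
Cumulative percent of genes (vertical axis) against the log2 ratio of FZR1 ko to control on the log2(FPKM + 1) scale (horizontal axis), for all 13554 genes kept (grey) and for the 31 lipid synthesis genes (red). The grey line crosses 50% near 0, while the red line reaches 50% at 0.49, and dashed lines mark 2-fold.

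The summed level of the 31 genes was 1264 FPKM in control, 0.251% of the sum over all genes, and 1567 FPKM in FZR1 ko, 0.313% of it. FDPS was the most abundant of them in both libraries. Without it the sums were 1023 and 1328 FPKM, a ratio of 1.30. The lowest was ACACA in control, at 1.65 FPKM, and SC5D in FZR1 ko, at 6.31 FPKM. The median level of the 31 genes was 24.95 FPKM in control against 32.15 FPKM in FZR1 ko. The 4 most abundant genes, FDPS, EBP, FADS1 and SCD, kept this order in both libraries, and their log2 ratios lay between -0.01 and 0.33. The 4 genes past 2-fold ranked 17 or lower of 31 in control.

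**Figure D2:**
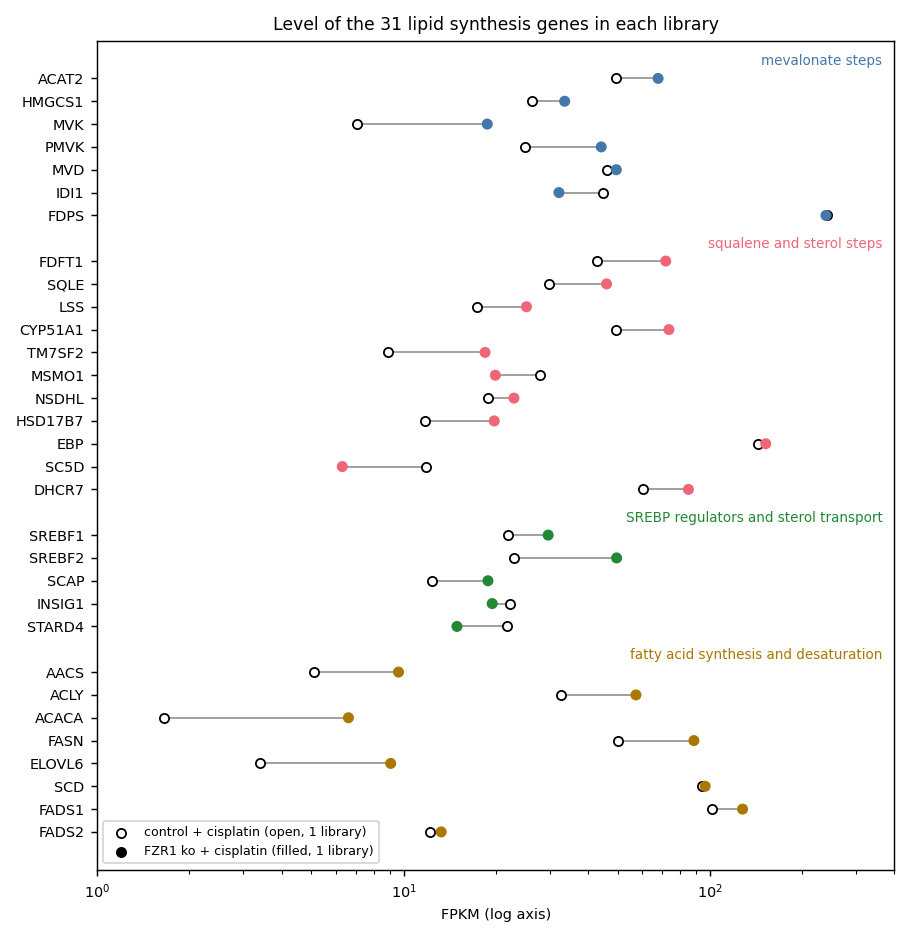
FPKM (log axis) of each of the 31 genes in control (open circles) and FZR1 ko (filled circles), both with cisplatin, with 1 library each, grouped by role and joined by a line. In 25 genes the filled circle lies to the right, with the widest gap for ACACA, from 1.65 to 6.61 FPKM.

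The mevalonate steps join acetyl-CoA units and build isoprenoid chains from them. Of these 7 genes, 5 were higher and 2 lower in FZR1 ko, with a median log2 ratio of 0.34, or 0.18 with the trend of GC content and length removed, when FDPS was also higher. ACAT2, the cytosolic thiolase that joins 2 acetyl-CoA, had 49.4 FPKM in control against 67.7 FPKM in FZR1 ko (log2 ratio 0.45). HMGCS1, which makes HMG-CoA, had 26.2 and 33.6 FPKM (0.34). MVK, mevalonate kinase, had 7.06 FPKM in control against 18.8 FPKM in FZR1 ko (1.29), and was the only gene of this group past 2-fold. The next kinase, PMVK, had 24.95 and 44.2 FPKM (0.80). MVD, the decarboxylase that follows, was close in both libraries, at 46.1 and 49.5 FPKM (0.10). IDI1, the isomerase of isopentenyl pyrophosphate, was lower in FZR1 ko, at 44.7 FPKM in control against 32.2 FPKM in FZR1 ko (-0.46). FDPS, farnesyl pyrophosphate synthase, had 241 and 239 FPKM (-0.01), and was slightly higher in FZR1 ko once the trend with GC content and length was removed. Neighbouring steps of the same route therefore differed in direction, with both kinases higher and the isomerase lower.

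Squalene synthesis and the sterol steps that follow had 9 genes higher and 2 lower of 11, with a median of 0.51 and none past 2-fold. FDFT1, squalene synthase, had 42.7 FPKM in control against 71.8 FPKM in FZR1 ko (0.73). SQLE, the epoxidase that adds oxygen to squalene, had 29.75 and 46.0 FPKM (0.61). LSS, which closes the rings to lanosterol, had 17.4 and 25.2 FPKM (0.51). All 3 enzymes that lead to lanosterol were thus higher in FZR1 ko. CYP51A1, lanosterol demethylase, had 49.2 and 73.5 FPKM (0.57). TM7SF2, a sterol C14 reductase, had 8.88 and 18.5 FPKM (0.98), and was the gene closest to 2-fold from below on this scale, with an FPKM ratio of 2.08. MSMO1, the sterol C4 methyl oxidase, had the opposite direction, with 27.9 FPKM in control against 19.9 FPKM in FZR1 ko (-0.47). NSDHL and HSD17B7 act with MSMO1 in removing the C4 methyl groups. NSDHL had 18.9 and 22.9 FPKM (0.27). HSD17B7 had 11.8 and 19.8 FPKM (0.70), but a close pseudogene, HSD17B7P2, with 1.08 and 2.06 FPKM, may share its reads, so its value is uncertain. Near copies of the other genes were not looked up. EBP, the sterol isomerase, was abundant and close in both libraries, at 144 and 152 FPKM (0.08). SC5D, sterol C5 desaturase, had the lowest ratio of the 31 genes, with 11.9 FPKM in control against 6.31 FPKM in FZR1 ko (-0.81). The last reductase, DHCR7, had 60.3 and 85.1 FPKM (0.49). EBP and SC5D act in neighbouring steps, and the ratio of EBP to SC5D in FPKM was 12.1 in control and 24.1 in FZR1 ko.

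**Figure D3:**
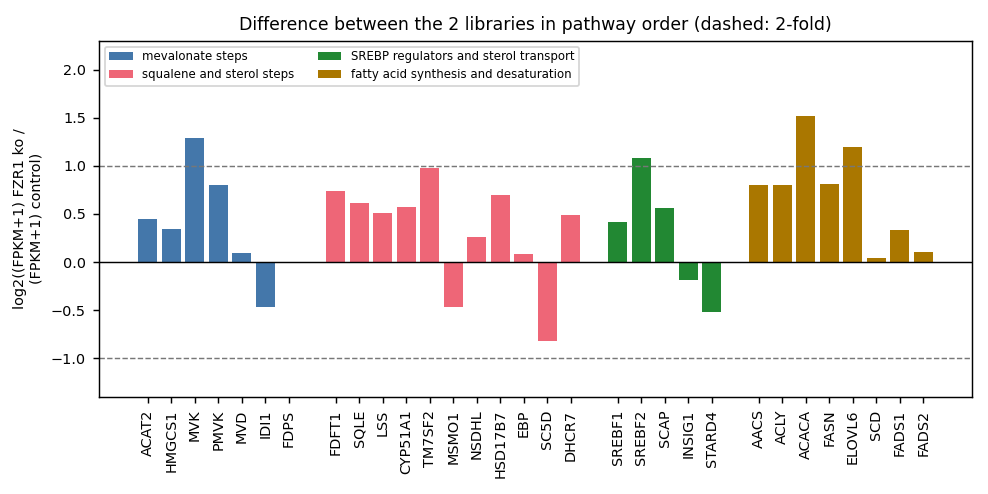
Log2 ratio of FZR1 ko to control on the log2(FPKM + 1) scale (vertical axis) for each gene in the order of the pathway, coloured by role, with dashed lines at 2-fold. MVK, SREBF2, ACACA and ELOVL6 pass the upper line, and bars below 0 belong to IDI1, FDPS, MSMO1, SC5D, INSIG1 and STARD4. With the trend of GC content and length removed SREBF2 is at 0.94, within the lines, TM7SF2 at 1.06, past the upper line, FDPS at 0.12 and SCD at -0.12.

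Among the regulators, SREBF2, which codes for the SREBP that favours sterol genes, had 22.9 FPKM in control against 49.6 FPKM in FZR1 ko (1.08), which became 0.94 with the trend of GC content and length removed and 0.97 with a pseudocount of 5 FPKM, both short of 2-fold. SREBF1, whose product favours fatty acid genes, had 21.9 and 29.65 FPKM (0.42). The ratio of SREBF2 to SREBF1 was 1.04 in control and 1.67 in FZR1 ko. SCAP, the escort of both precursors, had 12.4 and 18.9 FPKM (0.57). INSIG1, which retains SCAP and is itself a target of the SREBPs, was lower in FZR1 ko, with 22.3 and 19.5 FPKM (-0.18). STARD4, a sterol carrier in the cytosol and also a known SREBP target, had 21.8 and 14.9 FPKM (-0.52). The genes for both SREBPs and SCAP were therefore higher, and those for INSIG1 and STARD4 lower, in FZR1 ko.

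The fatty acid genes were all higher in FZR1 ko, 8 of 8, although SCD was slightly lower once the trend with GC content and length described further on was removed. Their median log2 ratio was 0.80 and 2 of them were past 2-fold. AACS, which activates acetoacetate for lipid synthesis, had 5.09 FPKM in control against 9.63 FPKM in FZR1 ko (0.80). ACLY, which releases cytosolic acetyl-CoA from citrate, had 32.6 and 57.35 FPKM (0.80). ACACA, the acetyl-CoA carboxylase of the committed step, was low in control, at 1.65 FPKM, and had 6.61 FPKM in FZR1 ko (1.52), the highest ratio of the 31 genes. FASN, fatty acid synthase, had 50.03 and 88.7 FPKM (0.81). ELOVL6, the elongase of palmitate, had 3.40 and 9.08 FPKM (1.20). The 3 fatty acid desaturases among the 31 genes were nearer to equal. SCD, the stearoyl-CoA desaturase, had 93.9 and 96.5 FPKM (0.04). FADS1, the delta-5 desaturase, had 101 and 128 FPKM (0.33), and FADS2, the delta-6 desaturase, had 12.2 and 13.3 FPKM (0.11). The 5 genes from acetyl-CoA supply to elongation had log2 ratios between 0.80 and 1.52, and the 3 desaturases had 0.33 or less. With the trend of GC content and length removed, FASN had 0.32 and ACACA 1.16, and the desaturases had 0.18 or less. FASN exceeded ACACA 30.3-fold in FPKM in control and 13.4-fold in FZR1 ko.

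Positions on the genome bear on some of these values. In the GENCODE 44 annotation of hg38, 15 of the 31 genes share exon bases with a gene on the opposite strand, and whether the counting used strand is not given in the sources used here. FADS1 and FADS2 share 490 exon bases on opposite strands. ACAT2 shares 454 with TCP1, which had 248 FPKM in control against 186 FPKM in FZR1 ko. SREBF1 shares 556 with RAI1, which had 1.48 and 5.22 FPKM. ACAT2 also shares 133 with SOD2, MVK shares 225 with MMAB, and SREBF2 shares 731 with SREBF2-AS1. HMGCS1 shares the most on the opposite strand, 2497 bases with a long noncoding RNA that carries no symbol, and FDPS shares 693 with RUSC1-AS1 and IDI1 643 with IDI2-AS1. On the same strand 5 of the 31 genes share exon bases with another gene, which knowledge of the strand would not resolve. They are CYP51A1, with 2844 and 2827 bases shared with each of a pair of gene models that carry no symbol, EBP, with 644, FADS1, with 80, FADS2, with 49, and TM7SF2, with 18. The values of these genes are uncertain to that extent.

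Of the 6 genes that were lower in FZR1 ko, 4 had transcripts of low GC content, while FDPS had 55.0%, above the median of 49.3% over all genes kept. Over the canonical GENCODE 44 transcripts, the 6 genes that were lower had a median GC content of 37.7%, and the 25 that were higher had 54.0%. Of the 6 genes with a GC content of at most 41.1%, the lowest 20% of all genes, IDI1, MSMO1, SC5D and STARD4 were lower and HMGCS1 and CYP51A1 were higher in FZR1 ko, with a median log2 ratio of -0.46. Above this limit 23 of 25 genes were higher, with a median of 0.57, and INSIG1 and FDPS were lower. Over the 31 genes Pearson's r of GC content with the log2 ratio was 0.46 and Spearman's rho 0.43. Over the 13145 genes kept that had a GC value, r was -0.0038. These are correlations across genes of the same 2 libraries, and genes are not replicates. Transcript length had an r of 0.18 with the log2 ratio over those 13145 genes and of 0.22 over the 31. When the trend with GC content and length over all genes was removed, an alternative added after the values were seen, 25 of the 31 genes were higher, with FDPS among them and SCD not, and the median was 0.37. FDPS then had 0.12 and SCD -0.12, the opposite signs, TM7SF2 had 1.06 and SREBF2 0.94. The medians were then 0.18 for the mevalonate steps, 0.48 for the squalene and sterol steps, 0.23 for the regulators and 0.49 for the fatty acid genes.

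Other lipid genes were read from 7 lists. Of their 65 genes 63 passed the filter, with a median log2 ratio of 0.07. At least 2-fold higher were 5 of the 63 (7.94%), against 6.78% of all genes kept, and 2 of the 63 were at least 2-fold lower, against 6.72%. Where 1 FPKM was required in both libraries, 4 were at least 2-fold higher, against 5.32% of all genes then kept, since ACSL1 had passed only through its value in FZR1 ko. The list of other fatty acid synthesis and activation genes had 16 genes kept with a median of 0.48 and held 4 of the 5. They were ME1, the malic enzyme that supplies NADPH, with 2.60 FPKM in control against 7.23 FPKM in FZR1 ko (1.19), ACACB, the acetyl-CoA carboxylase bound to mitochondria, with 1.10 and 3.57 FPKM (1.12), FADS3, of the same family as FADS1 and FADS2, with 36.0 and 81.3 FPKM (1.16), and ACSL1, an acyl-CoA synthetase, with 0.53 and 2.66 FPKM (1.26). With the trend of GC content and length removed ACACB had 0.56 and was no longer past 2-fold. The acetyl-CoA carboxylases were both higher in FZR1 ko, and ACACA was 1.5 times ACACB in control and 1.85 times in FZR1 ko.

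The list of glycerolipid synthesis and storage had a median of 0.17 over 8 genes. DGAT2, which makes triacylglycerol, had 8.05 and 20.2 FPKM (1.23), and PLIN2, the coat protein of lipid droplets, had 53.95 FPKM in control against 22.1 FPKM in FZR1 ko (-1.25). Sterol handling and LXR genes had 6 lower and 2 higher of 8, with a median of -0.30. NR1H3, which codes for an LXR, had 16.4 and 32.2 FPKM (0.93), and 1.04 with the trend of GC content and length removed. The gene of the other LXR, NR1H2, had 33.8 FPKM in control against 24.1 FPKM in FZR1 ko (-0.47). MYLIP, a ubiquitin ligase induced by LXR, a sterol receptor, had 11.55 and 4.63 FPKM (-1.16). In the list of SREBP processing and enzyme turnover, the median was -0.10 over 8 genes, with 4 higher and 4 lower. The branches of the mevalonate pathway, with 8 genes kept, had a median of 0.07 and the widest difference in PDSS1, a subunit of the enzyme that makes the tail of coenzyme Q, at 4.19 and 8.29 FPKM (0.84). Electron transfer and scaffold partners of the sterol enzymes had a median of 0.30 over 6 genes, led by ERG28, a scaffold of the C4 demethylation enzymes, at 25.5 and 37.65 FPKM (0.54). Fatty acid oxidation genes, which run in the opposite direction to synthesis, showed a median of 0.16 (9 genes), with the widest difference in CPT2, which returns acylcarnitine to acyl-CoA inside mitochondria, at 24.25 and 14.6 FPKM (-0.70). None of these last 3 lists, nor that of SREBP processing, had a gene past 2-fold.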

How the data were processed

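RNAseq of control and FZR1 ko cells, both with cisplatin, was analysed from the table of FPKM values that the authors deposited, 1 library per condition, rounded to 2 decimals. The BGISEQ-500 reads were aligned to the transcriptome with Bowtie2 (2.2.5 per the processing notes of the submitters) and quantified with RSEM on hg38; the notes also name Trimmomatic 0.36 and HISAT2 2.1.0, and the annotation version is not given in the sources used here. Of 24663 rows, 1630 had no value and 23033 were used, of which 22925 (99.5%) matched a RefSeq symbol. The log2 ratio used a pseudocount of 1 FPKM and genes that reached 1 FPKM in either library. Counts past 2-fold and medians were computed. The counting was checked beforehand on simulated 4-fold changes in genes with a mean of at least 10 FPKM. Changes near 2-fold, changes in low genes and the medians were not checked in this way. No difference was tested for significance and no p-value is given. All 31 members are named. In each list of other lipid genes, those past 2-fold are named or, where there were none, the gene with the widest difference, except that 1 gene is not reported here. MMAB, NR1H3, NR1H2, the other head-to-head neighbours, the genes sharing exons and HSD17B7P2 were named with their values in view. The members and lists were chosen with earlier results of these data known. The alternatives were other pseudocounts, filters, centring, scaling and fold thresholds, TPM, protein-coding genes only, and the sum without FDPS. Python 3.11.15, numpy 2.4.6, pandas 2.3.3 and matplotlib 3.10.9 were used.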

Additional observations from a re-analysis of the deposited data

How the results depend on the processing

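No paired analysis was possible because control and FZR1 ko are 1 library each, which also leaves no replicate to omit. Against 4 members at least 2-fold higher in FZR1 ko and 0 lower, a pseudocount of 5 FPKM gave 0 higher, a 4-fold threshold 0 higher, a 1.5-fold threshold 12 higher and 1 lower, and the 27 members with a mean of at least 10 FPKM, a limit added after the values were seen, 2 higher and 0 lower. Among the other lipid genes, 5 higher and 2 lower became 9 and 8 at 1.5-fold, 0 and 0 at 4-fold, and 1 and 1 with 5 FPKM as pseudocount. By construction fewer genes pass when either is raised. The share of all genes at least 2-fold higher, 6.78%, became 10.8% with a pseudocount of 0.1 FPKM, 1.35% with 5 FPKM, 3.99% without a filter, 18.0% at 1.5-fold, 0.45% at 4-fold and 3.65% among protein-coding genes with a mean of at least 10 FPKM.

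In each setting for which it was computed, 25 of the 31 members were higher in FZR1 ko, and the median of the members ranged from 0.37 to 0.50. The median of the mevalonate branches became 0.13 without a filter. That of sterol handling and LXR became -0.20 with 5 FPKM as pseudocount. Removing the trend with GC and length, an alternative added later, moved the medians of the mevalonate steps to 0.18, of the regulators to 0.23 and of the fatty acid genes to 0.49. Among the lists of other lipid genes, it moved SREBP processing to -0.18, glycerolipid synthesis and storage to 0.10 and the mevalonate branches to 0.11. Signs turned under it for FDPS (0.12), SCD (-0.12), NUS1 (0.029), MBTPS1 (-0.12), ELOVL1 (0.16), SCD5 (-0.0086), ACADS (0.0045) and ECI1 (0.044), and for GPAM with centring (0.0012) and rescaling (0.0016). The cause was not tested. The summed FPKM ratio of the members stayed between 1.25 and 1.30 against 1.24, and their shares were the same in TPM. The unknown depth limits the low genes most, ACACA, ELOVL6 and ACSL1 among them.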

Other observations

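Of the 31 members, 8 have a protein-coding gene on the opposite strand whose start site lies within 1000 bases of their own. The start site was taken as the outermost annotated end of each gene. A gene with several start sites may mostly start elsewhere, so these pairs need not share a promoter. MMAB, which codes for an enzyme of vitamin B12 metabolism and starts 325 bases from MVK, had 5.10 FPKM in control against 13.7 FPKM in FZR1 ko, at 1.27 on the log2 scale beside 1.29 for MVK. NADSYN1, which makes NAD and starts 241 bases from DHCR7, had 8.06 and 12.7 FPKM (0.60), beside 0.49 for DHCR7. TADA2A, part of a histone acetyltransferase complex and 50 bases from ACACA, had 3.99 and 7.76 FPKM (0.81), beside 1.52 for ACACA. SOD2, the mitochondrial superoxide dismutase, 484 bases from ACAT2, had 307 FPKM in control against 128 FPKM in FZR1 ko (-1.26), while ACAT2 had 0.45. WDR37, 419 bases from IDI1, had 3.01 and 3.66 FPKM (0.22), while IDI1 had -0.46. CETN2, 210 bases from NSDHL, was nearly equal, at 21.6 and 21.2 FPKM (-0.02), while NSDHL had 0.27. TMEM258, 178 bases from FADS2, had 268 and 320 FPKM (0.26), the same direction as FADS2 (0.11), and ODAD4, 75 bases from ACLY, was below the filter at 0.13 and 0.19 FPKM. The annotated exons of MVK and MMAB share 225 bases on opposite strands and those of ACAT2 and SOD2 share 133, so the values within each of these pairs may not be independent. These pairs were looked up after the values of the members were seen.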
